A study of Mus musculus with 4 samples.

Results

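The mitochondrial ribosomal protein genes were examined in activated CD4 T cells with and without the microRNA miR-146a. Members were the genes whose probe sets carry 1 gene symbol that starts with Mrpl or Mrps followed by a digit. The rule found 76 of the 18193 genes named on the array. Of these, 47 carry an Mrpl symbol, named for the large ribosomal subunit, and 29 an Mrps symbol, for the small one. Counts by subunit follow the symbol, and the place of each protein in the ribosome was not checked. Each gene was represented by its probe set with the highest mean signal, and all 76 passed the filter on dim genes. Another 4 probe sets pair such a symbol with a second gene's symbol and were left out, which leaves Mrpl30 and Mrpl53 undescribed.

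Mitochondria carry their own ribosomes, which translate the few respiratory chain subunits encoded in mitochondrial DNA. The ribosomal RNAs are made inside the organelle, but every protein of this ribosome is encoded in the nucleus, made in the cytosol and imported. Some of these proteins have counterparts in the bacterial ribosome, while others are found only in mitochondria. Activated T cells enlarge their mitochondrial mass as they grow and divide, and block of mitochondrial translation is known to limit their proliferation and cytokine production. The nuclear factors NRF1, GABP and YY1 are known regulators of many genes of this group.

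The missing microRNA is a negative regulator of NF-kB signalling that is induced when T cells are activated. A microRNA pairs with its targets mainly through its seed, bases 2 to 8. The mature strand is shown because its absence defines the groups; it lies on chromosome 11, minus strand, at chr11:43374435-43374456 (RefSeq, GRCm38.p6), with the seed in capitals.
mmu-miR-146a-5p: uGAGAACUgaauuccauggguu

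All cells came from 2D2 transgenic mice, whose T cell receptor recognises a peptide of myelin oligodendrocyte glycoprotein; the control mice carried this transgene too and were otherwise wildtype, while the compared group lacked miR-146a. Naive CD4 T cells were sorted and kept for 3 days on plates with bound anti-CD3 (5 µg/ml) plus anti-CD28 (1 µg/ml). Total RNA was then hybridised to Affymetrix Mouse Genome 430 2.0 arrays, 2 wildtype and 2 deficient. The labels call the replicates biological and give no animal, age or batch, so the p-values measure only the spread between these arrays. Values are MAS5 signals, group values are mean ± SD (n = 2 arrays), and differences are deficient minus wildtype on the log2(signal + 14.7) scale with the standard error of the fit.

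Depth does not apply to arrays, and their number limits the precision. Median signals per array lay between 48.6 and 57.7. All 10 T cell markers named on the array passed the filter, with Cd3d at 16900 ± 1181 in wildtype and 17523 ± 200 in deficient arrays, and none differed between genotypes at an adjusted p of 0.05 or an unadjusted p of 0.05. Markers of B cells were higher in the deficient arrays in 8 of 8 tested genes, 3 of which passed limma's adjusted p of 0.05; their summed signal was 1068 and 1720 in wildtype against 4088 and 5247 in deficient arrays. No B cell marker was at 0, and Pax5 lay below the filter. Of 5 tested myeloid markers 1 was higher and 4 lower, and of 5 tested CD8 and NK cell markers 5 were higher, none past the adjusted threshold. At limma's unadjusted p of 0.05, 0 myeloid markers differed and 1 CD8 and NK cell marker was higher. That marker, Klrk1, read 191 ± 55 in wildtype against 424 ± 92 in deficient arrays (unadjusted p = 0.00127, adjusted p = 0.240). In bulk RNA, fewer cells of a type and less RNA per cell cannot be told apart.

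The comparison asks whether loss of miR-146a goes with another level of the mitochondrial translation machinery in stimulated T cells. Among the 76 members, limma called 0 at an adjusted p of 0.05, against 0.179% of the 12819 genes tested (23 genes, with 22 higher, or 0.172%). At an unadjusted p of 0.05, 2 of 76 members were higher and 0 lower, against 5.25% of all genes in either direction and 2.83% higher. Within the members' range of signal the share was 4.91% in either direction. Signals were similar in both genotypes: the differences ran from -0.24 for Mrpl33 to 0.22 for Mrps16, and 47 of 76 lay within 0.1 of 0 on the log2 scale. Most of these small differences pointed the same way, with 59 members higher in the deficient arrays and 17 lower, where 47.5% of all genes were higher. The median difference was 0.06 for the members and -0.01 for all genes tested. Without wildtype replicate 1 the members' median was 0.10, and without deficient replicate 1 it was 0.04. The 23 genes called overall became 19 to 100 when any 1 array was left out, and the members called stayed at 0 except without wildtype replicate 2, where Mrpl33 passed.

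The interval of each difference shows what these arrays can resolve. In 73 of 76 members the 95% interval of the difference lay within 0.5 of 0, a bound that 48.9% of all tested genes met. The exceptions were Mrpl33, whose interval reached down to -0.77, Mrpl55, whose interval reached up to 0.54, and Mrpl38, up to 0.51. All 76 intervals lay within 1 of 0, so a 2-fold change lay outside the interval of each member. The members' main probe sets are all bright, with mean log2 values from 9.44 to 13.3. Among the 5031 genes tested in that range, 87.7% had an interval within 0.5 of 0, 51.5% were higher in the deficient arrays and the median difference was 0.00397.

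**Figure D1:**
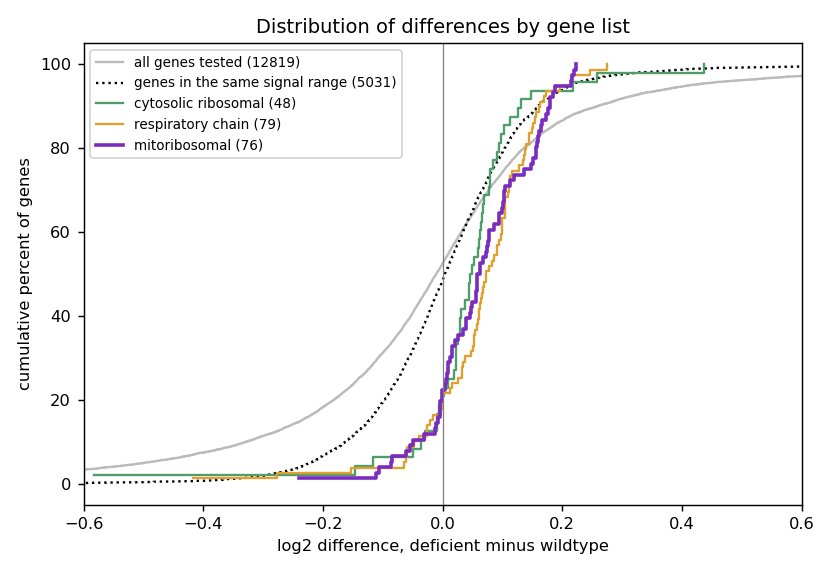
Cumulative percent of genes (vertical axis) at or below each log2 difference, deficient minus wildtype (horizontal axis, drawn from -0.6 to 0.6), for the 76 mitoribosomal genes, 2 related gene lists, all genes tested and those in the members' range of signal. The mitoribosomal curve is steep and lies to the right of 0 for most of its length, with a median of 0.06, close to the curves of both related lists.

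Small-subunit genes held the members with the smallest p. This subunit binds the messenger RNA and reads its codons. Of the 29 genes with an Mrps symbol 24 were higher and 5 lower in the deficient arrays, with a median difference of 0.08. Mrps16, which encodes the counterpart of a small bacterial ribosomal protein and is mutated in a human respiratory chain deficiency, had signals of 6402 and 6730 in wildtype against 7451 and 7881 in deficient cells. Both deficient arrays lay above both wildtype arrays, a difference of 0.22 ± 0.09, or 1.17-fold (unadjusted p = 0.0336, adjusted p = 0.913). Mrps14, which belongs to the head of the subunit, read 9589 and 9034 against 11185 and 10506, again without overlap, a difference of 0.22 ± 0.09 (unadjusted p = 0.0349, adjusted p = 0.917). Mrps21 was the most even within each genotype of those near the top, with 1919 and 1933 against 2226 and 2250 (0.22 ± 0.10, adjusted p = 0.947).

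Other small-subunit genes showed the same order of genotypes with smaller gaps. Mrps12, the counterpart of the bacterial protein that guards decoding accuracy, read 2528 and 2450 in wildtype and 2868 and 2702 in deficient arrays, a difference of 0.16 ± 0.10. Mrps7, an early-binding protein of the subunit's head, read 2167 and 2095 against 2427 and 2330, a difference of 0.16 ± 0.10. Mrps5 had 1432 and 1229 against 1573 and 1456, a difference of 0.19 ± 0.12. In each of the 3 genes the genotypes did not overlap, and none passed (adjusted p of 0.964, 0.964 and 0.971). For Mrps5 the gap between the wildtype arrays, 0.22 on the log2 scale, was larger than its difference of 0.19. Mrps22, mutated in another human respiratory chain deficiency, differed by 0.12 ± 0.10 with overlapping arrays. Mrps25, a mitochondria-specific protein, read 2669 and 2268 against 2848 and 2734; the arrays did not overlap, but the gap between the wildtype arrays was larger than that between the nearest arrays of the genotypes.

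Some small-subunit genes were level between the genotypes. Mrps34 read 5678 and 5967 against 5908 and 5784, a difference of 0.01 ± 0.09 with a 95% interval from -0.19 to 0.21. Mrps27, which encodes a pentatricopeptide repeat protein that binds RNA, read 924 and 890 against 959 and 800, a difference of -0.05 ± 0.13. Mrps36, since assigned to the alpha-ketoglutarate dehydrogenase complex and not to the ribosome, differed by 0.06 ± 0.09. The lowest differences in the subunit were those of Mrps33 (-0.11 ± 0.16) and Mrps17 (-0.09 ± 0.11), a ribosomal RNA-binding protein with a bacterial counterpart. Mrps33 read 5586 and 3885 in wildtype against 4161 and 4502 in deficient arrays, so that wildtype replicate 1 stood above the other arrays. Without that array its difference was 0.15.

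The large subunit is the part of the ribosome that joins amino acids. Genes with an Mrpl symbol were higher in 35 of 47 cases, with a median difference of 0.06 and no unadjusted p below 0.05. Mrpl55 had the largest difference upward among them at 0.22 ± 0.14, read as 1131 and 1190 against 1544 and 1181. Here only deficient replicate 1 was high, and the genotypes overlapped. Mrpl17, which lies near the exit of the peptide tunnel, read 4849 and 4956 against 5451 and 5706 without overlap, a difference of 0.19 ± 0.09 (unadjusted p = 0.0659, adjusted p = 0.953); with the mean of all its probe sets it was -0.22. Mrpl47 read 3774 and 3479 against 4312 and 3907, a difference of 0.18 ± 0.10, also without overlap; with the mean of all its probe sets it was -0.01.

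**Figure D2:**
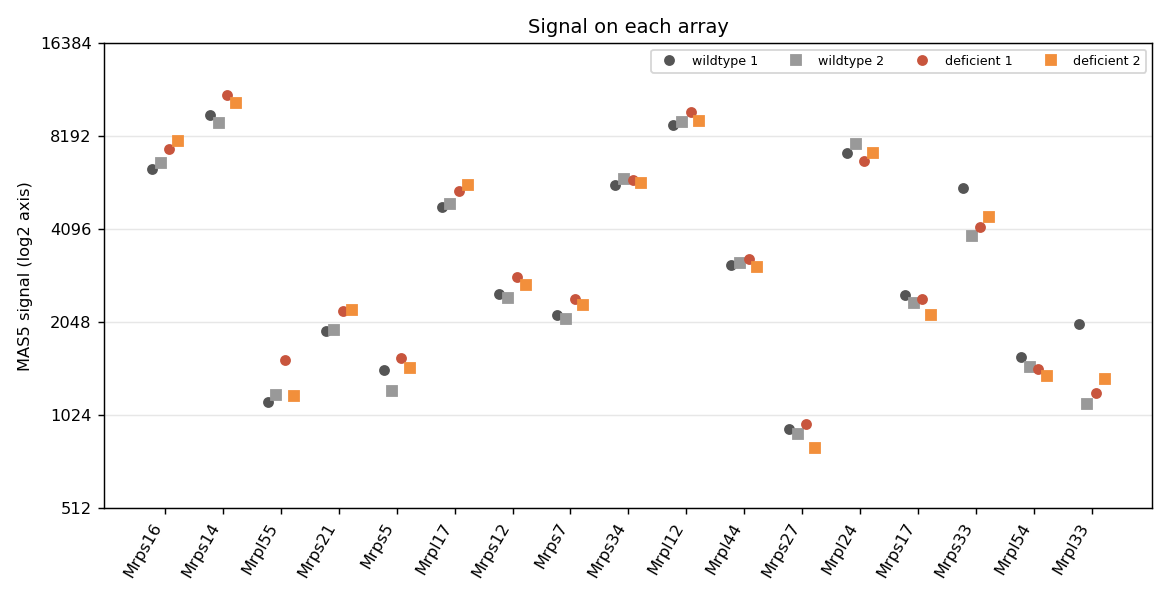
MAS5 signal on a log2 axis (vertical) of 17 mitoribosomal genes (horizontal), with 1 point per array: grey for wildtype, orange to red for deficient, circles for replicate 1 and squares for replicate 2. For Mrps16, Mrps14, Mrps21 and Mrpl17 both deficient points sit above both wildtype points, while for Mrpl33 and Mrps33 wildtype replicate 1 stands above the other 3 arrays.

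Members with well-known roles in the large subunit differed little. Mrpl12, a protein of the stalk that recruits translation factors, read 8921 and 9100 against 9838 and 9156, a difference of 0.07 ± 0.09. Mrpl10 and Mrpl11, which form and border the base of this stalk, differed by -0.00362 ± 0.11 and -0.01 ± 0.10. Mrpl3 and Mrpl4, proteins that reach into the ribosome's core and tunnel, differed by 0.11 ± 0.12 and 0.06 ± 0.10. Mrpl18, the relative of the 5S RNA-binding protein of bacteria, read 5268 and 4240 in wildtype against 4942 and 4648 in deficient arrays, so the deficient arrays lay between the wildtype ones. Mrpl32, which is matured by the inner-membrane m-AAA protease, differed by 0.05 ± 0.09 and Mrpl41 by 0.06 ± 0.09. Mrpl44, a relative of RNase III, differed by 0.01 ± 0.09. Mrpl45, which tethers the ribosome to the inner membrane, differed by 0.00776 ± 0.10. The 95% intervals of Mrpl44 and Mrpl45 ran from -0.20 to 0.22 and from -0.22 to 0.23.

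The lowest difference of all members was that of Mrpl33, a small protein with a bacterial counterpart. It read 2026 and 1111 in wildtype against 1204 and 1338 in deficient cells, a difference of -0.24 ± 0.23 (unadjusted p = 0.335). Only wildtype replicate 1 was high. Without wildtype replicate 2 the difference was -0.67 and passed (adjusted p = 0.0261), in a fit where the spread came from the deficient pair alone; without wildtype replicate 1 it was 0.19, the opposite sign. Mrpl54, a mitochondria-specific protein, read 1583 and 1464 against 1446 and 1374, so that both deficient arrays lay below both wildtype arrays (-0.11 ± 0.11). Mrps18a was the other member with deficient arrays wholly lower, at 3816 and 3811 against 3722 and 3624 (-0.05 ± 0.09). Mrpl24 and Mrpl52 differed by -0.08 ± 0.09 and -0.06 ± 0.12 with overlapping arrays. None of the 5 passed over the 4 arrays.

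**Figure D3:**
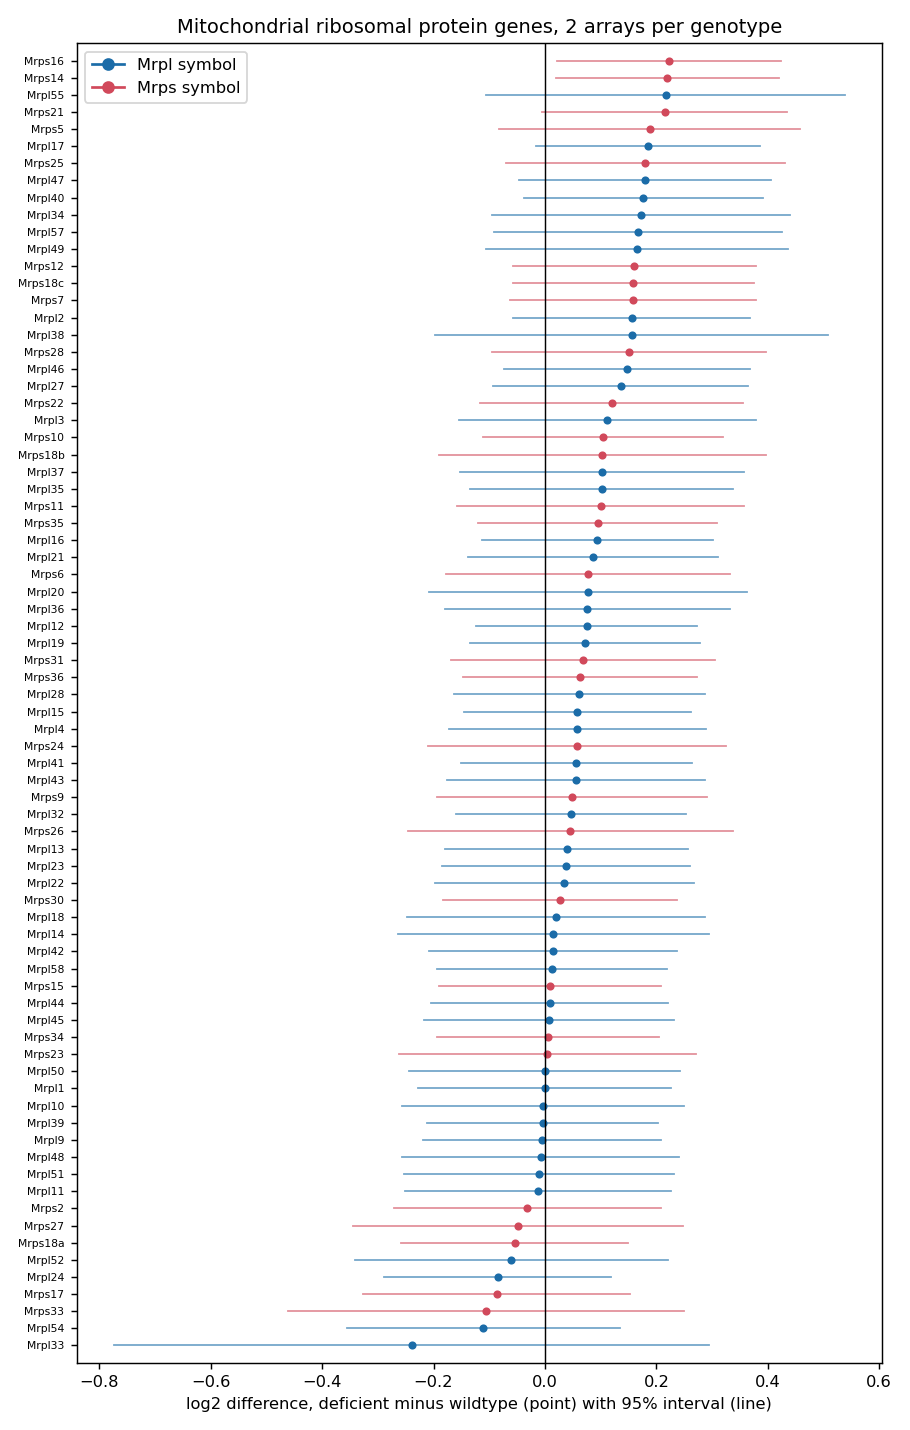
Log2 difference, deficient minus wildtype, of each of the 76 genes (point) with its 95% interval (line), ordered by size; blue marks Mrpl and red Mrps symbols. Points run from -0.24 (Mrpl33) to 0.22 (Mrps16), and the intervals of Mrps16 and Mrps14 alone do not cross 0 (without adjustment for the number of genes).

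The 46 members listed here as having a bacterial counterpart had a median difference of 0.08, with 37 higher. The 30 others, with Mrpl47 counted among them, had a median of 0.04, with 22 higher. That list went by member number and may be incomplete, and the difference between the parts was not tested. Over all 76 members the arrays did not overlap with deficient higher in 21 (27.6%) and with deficient lower in 2, where 15.9% and 17.7% of all genes tested did so, 33.6% together. Within the members' range of signal these shares were 18% and 14.8%. The difference exceeded both gaps between arrays of 1 genotype in 15 of 76 members, against 21.8% of all genes. The median absolute difference of the members was 0.08, and the median gaps between the wildtype arrays and between the deficient arrays were both 0.09. For all genes tested the median absolute difference was 0.12 and the median gaps were 0.17 in both genotypes; a difference of 2-array means varies less than a gap between single arrays.

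Array by array, the members were lowest in wildtype replicate 2 and highest in deficient replicate 1. Their median deviation from each gene's mean was -0.01 and -0.07 in wildtype replicates 1 and 2, against 0.06 and 0.01 in deficient replicates 1 and 2. Deficient replicate 1 was the highest array for 36 of 76 members (47.4%), where it was so for 24.6% of all genes, and wildtype replicate 2 was the lowest for 38, where it was so for 23.8% of all genes. Without deficient replicate 1, 63.2% of members were higher, and without wildtype replicate 2, 69.7%. In the order wildtype replicates 1 and 2, then deficient replicates 1 and 2, the summed signal of the B cell markers was 1068, 1720, 4088 and 5247. That of the CD8 and NK cell markers was 2647, 2843, 4005 and 3032, of which Gzma alone gave 1522, 1771, 2755 and 1428. Gzma and Prf1 read higher in deficient replicate 1 than in deficient replicate 2, while Klrk1, Cd8a and Cd8b1 read lower. The summed signal of the T cell markers was 57139, 66561, 59627 and 64564, and that of the myeloid markers 544, 542, 460.4 and 504.5. The part of these cells in the members' values was not tested.

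**Figure D4:**
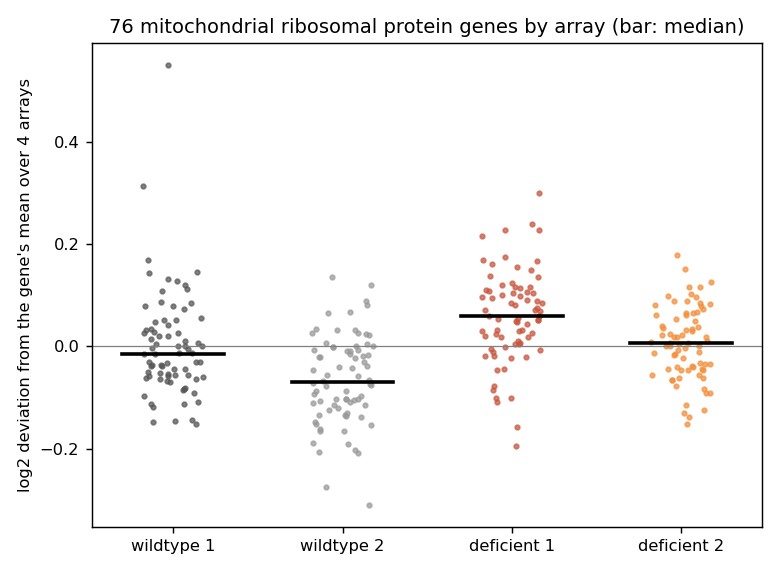
Log2 deviation of each of the 76 genes from its own mean over the 4 arrays (vertical), by array (horizontal); each dot is a gene, the bar is the median and horizontal scatter is for display. The median is lowest in wildtype replicate 2 (-0.07) and highest in deficient replicate 1 (0.06), and the clouds of all arrays overlap.

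Respiratory chain genes, whose mitochondrially encoded partners this ribosome makes, had a median difference near that of the members and were also highest in deficient replicate 1. Of 79 tested genes of the respiratory chain and ATP synthase 63 were higher and 16 lower, with a median of 0.07 and 0 genes called (1 at an unadjusted p of 0.05). Both deficient arrays lay above both wildtype arrays in 49.4% of these 79, against 15.9% of all genes tested. In wildtype replicates 1 and 2 the median deviations of the respiratory chain genes were -0.06 and -0.04, against 0.06 and 0.01 in deficient replicates 1 and 2. Deficient replicate 1 was the highest array for 68.4% of them, against 47.4% of the members, and wildtype replicate 2 the lowest for 35.4%, against 50% of the members. The 48 tested cytosolic ribosomal protein genes had 38 higher and 10 lower and a median of 0.05. At limma's unadjusted p of 0.05, 1 of them was higher and 1 lower. Both deficient arrays lay above both wildtype arrays in 8.33% and below them in 8.33%, against 15.9% and 17.7% of all genes tested. The cytosolic genes' median deviations were -0.12 and 0.08 in the wildtype arrays. Wildtype replicate 2, lowest for the mitoribosomal genes, was thus the highest array for the cytosolic ones. These are descriptions, and no difference between the lists was tested.

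Many members have further probe sets, which are annotated with the same gene symbol. Whether they measure the same transcripts was not checked. Past the filter 39 members had more than 1 probe set, with 68 further probe sets in all. Of the 27 further probe sets within the members' range of signal 23 were higher in the deficient arrays and 4 lower, with a median of 0.10. These differed from the gene's main probe set by a median of 0.05. The 41 dimmer ones had 17 higher and 24 lower, with a median of -0.03, and differed from the main probe set by a median of 0.24. Bright further probe sets were thus mostly higher and dim ones were not, a contrast that was not tested. Of the genes tested, 51.5% were higher within the members' range of signal and 47.5% at all signals. The further probe sets were read on the same 4 arrays as the main ones, so their direction is not separate support. With the mean of all probe sets per gene, 7 of the 34 named members changed sign, among them Mrpl17 (-0.22), Mrpl21 (-0.27), Mrpl58 (-0.24), Mrpl3 (-0.10) and Mrpl11 (0.13).

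Single further probe sets departed far from their gene. A dim Mrps10 probe set read 17.96 and 16.5 in wildtype and 67.0 and 74.9 in deficient arrays, a difference of 1.42, while the main one read 5241 and 4737 against 5480 and 5233 (0.10). A dim Mrps5 probe set went the other way, with 199.9 and 161 against 73.2 and 75.8 (-1.12), while the 4 other Mrps5 probe sets lay between 0.19 and 0.49. A Mrpl28 probe set read 902 and 961 in wildtype, 3779 in deficient replicate 1 and 805 in deficient replicate 2. Its difference of 0.90 therefore came from 1 array, and the main Mrpl28 probe set read from 2424 to 2658 on all 4. The second Mrps14 probe set, at 388 and 451 against 750.1 and 598, gave 0.66, the same direction as its main one. Dim probe sets of Mrpl15, Mrpl21 and Mrpl58 gave 0.67, -0.65 and -0.50, against 0.06, 0.09 and 0.01 for the main ones. With every probe set tested on its own, 0 of 144 mitoribosomal probe sets passed limma's adjusted p of 0.05, and 6 of 144 had an unadjusted p below 0.05. In the main fit, with 1 probe set per gene, 5.25% of all genes tested had an unadjusted p below 0.05. These departing probe sets of Mrps10, Mrpl28 and the second of Mrps14 were chosen after their values were seen.

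**Figure D5:**
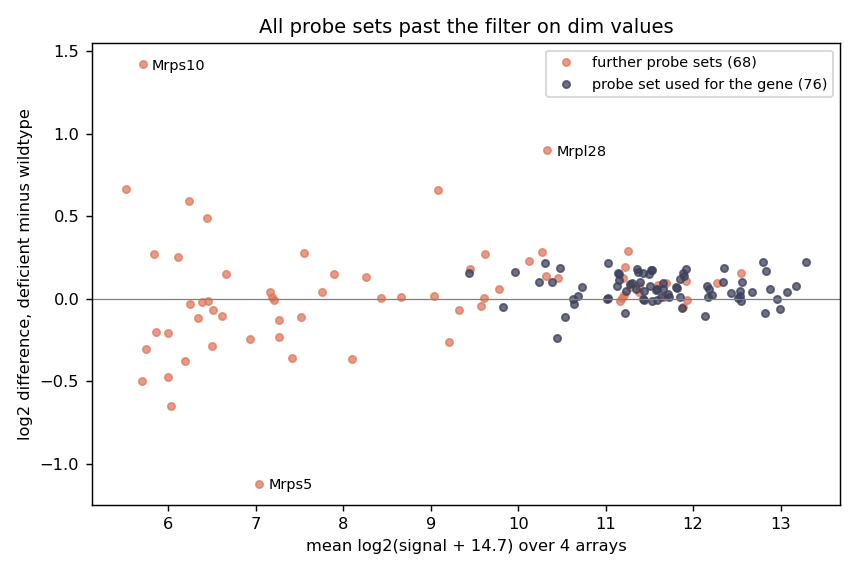
Log2 difference, deficient minus wildtype (vertical), against mean log2 signal over the 4 arrays (horizontal) for all 144 mitoribosomal probe sets past the filter; dark points are the 76 used for the genes and red points the 68 further ones. Differences spread from -1.12 to 1.42 among further probe sets and from -0.24 to 0.22 among those used, and labels mark the 3 probe sets beyond 0.7.

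The other genes of mitochondrial translation had no common direction. Mitoribosomal proteins that carry other symbols had 3 of 4 genes higher, with Chchd1 at 0.08 ± 0.09, Gadd45gip1 at 0.05 ± 0.09 and Dap3 at 0.01 ± 0.09. Assembly factors, which process and fold the ribosomal RNAs, had 12 of 20 higher with a median of 0.02; the GTPase genes Mtg1 and Noa1 differed by 0.16 ± 0.11 and 0.15 ± 0.11, and Ngrn by -0.19 ± 0.12. Translation factors had 6 of 13 higher and a median of -0.01, with Slirp, which stabilises mitochondrial messenger RNAs, at 0.12 ± 0.09, the elongation factor gene Tsfm at 0.10 ± 0.10 and the membrane insertase gene Oxa1l at -0.13 ± 0.13. The synthetases that charge mitochondrial transfer RNAs had 7 of 16 higher and a median of -0.04. Aars2 and Ears2 read 190 ± 18 against 253 ± 18 and 236 ± 35 against 293 ± 8, and Mars2 91.3 ± 0.2 against 57.7 ± 10.1. In all 53 genes of these lists 0 passed the adjusted p of 0.05, and 0 had an unadjusted p below 0.05.

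Regulators of mitochondrial transcription and biogenesis lay mostly the other way. Of 14 tested, 4 were higher and 10 lower in the deficient arrays, with a median of -0.06; in 7 both deficient arrays were below both wildtype arrays, where 17.7% of all genes were. Nrf1, which encodes the nuclear respiratory factor named above, read 809.7 and 773 in wildtype and 590 and 730.3 in deficient arrays, a difference of -0.26 ± 0.14 (adjusted p = 0.953). Esrra, the estrogen-related receptor that drives respiratory genes, differed by -0.23 ± 0.14, and Gabpb2, a GABP subunit gene, by -0.19 ± 0.11. None of the 14 passed limma's test, adjusted or at an unadjusted p of 0.05.

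Promoters of the members were compared with those of other genes, since the named regulators bind there. RefSeq promoter windows (GRCm38.p6, 250 bases before to 50 after the most upstream start) were matched by symbol for 67 of 76 members; Mrpl4, Mrpl13, Mrpl15, Mrpl19, Mrpl38, Mrpl54, Mrps28, Mrps34 and Mrps35 had none. On either strand, the NRF1 core (GCGCA, any 1 base, then GCGC) was present in 12 of 67 (17.9%), against 10.2% of 10373 genes tested and 4.82% of all 27025 genes with a window. The ETS core CCGGAAG, which GABP binds, was present in 34.3%, against 17.5% of genes tested and 9.14% of all. The YY1 core AAGATGGCG was present in 11.9%, against 3.04% of genes tested and 1.48% of all. Shares of members and genes tested were 7.46% and 9.90% for the E-box CACGTG, 38.8% and 38.7% for CCAAT, and 5.97% and 7.64% for TATAAA. The ETS and YY1 cores can overlap, since AAG ends the first and opens the second. A match is a description, not a binding site. Stretches of 5 promoters are shown with the motif in capitals, to let the NRF1 matches be compared with each other and with a YY1 match in its reverse complement.
Mrpl12 (NRF1, chr11:120484536-120484585, plus strand): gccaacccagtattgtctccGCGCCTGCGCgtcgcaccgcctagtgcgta
Mrpl17 (NRF1, chr7:105811107-105811156, minus strand): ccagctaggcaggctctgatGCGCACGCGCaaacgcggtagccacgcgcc
Mrpl44 (NRF1, chr1:79775963-79776012, plus strand): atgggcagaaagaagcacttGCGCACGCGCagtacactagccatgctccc
Mrps21 (NRF1, chr3:95871576-95871625, minus strand): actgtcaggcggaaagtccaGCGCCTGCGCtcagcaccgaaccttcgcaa
Mrpl36 (YY1, chr13:73330958-73331006, plus strand): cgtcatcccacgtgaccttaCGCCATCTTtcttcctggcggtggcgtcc

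All 5 stretches lie before the annotated start. The capitals in Mrpl12 and Mrps21 match the NRF1 core in its reverse complement. Mrpl17 and Mrpl44 hold the same 10 letters, and so do Mrpl12 and Mrps21; the differences between genotypes within these pairs were 0.19 and 0.01, and 0.07 and 0.22. Over the members, the median difference was 0.05 in the 12 genes with the NRF1 core and 0.07 in the 55 without it. For the ETS core it was 0.06 in the 23 genes with it and 0.06 in the 44 without it, and for the YY1 core 0.07 in 8 and 0.06 in 59. No difference between these subsets was tested.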

How the data were processed

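The authors deposited 1 linear intensity per probe set and array; MAS5 and the Transcriptome Analysis Console are named per the submitters' processing notes, with no version or role. In the deposited table the mean without the lowest and highest 2% of values is 500 on every array, so values were already scaled, and a direction is relative to that scaling. Scanner files, detection calls and scan dates were not used here.

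Of 45101 probe sets, 64 controls were left out; 34945 have 1 gene symbol in the platform annotation, 932 several and 9160 none, and only the first kind was named. Signals were transformed as log2(signal + 14.7), the 25th percentile of all values, which understates folds of dim genes. Each gene was read from its probe set of highest mean signal. A gene entered the test when its mean log2 reached the 40th percentile of all probe sets, which is 5.48 or a signal of 29.9. The 12819 genes kept went into limma 3.58.1 (R 4.3.3; linear model and eBayes with an intensity trend, two-sided, Benjamini-Hochberg over all genes, threshold 0.05; 8.57 degrees of freedom). The fit was tested on simulated data. Replicate numbers are shared by the genotypes, but deviations of same-numbered arrays correlated by 0.05 over genes, so they were not treated as pairs. Promoters and figures were handled in Python 3.11.15 with matplotlib 3.10.9.

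The members and gene lists were chosen with earlier results of these data known. Named members are the 8 largest differences in each direction, those with an unadjusted p below 0.05, those whose probe sets differ in sign with 1 of at least 0.5, and members of known role; other lists contribute the 3 genes with the smallest p, and marker lists only what a result needs. Mrpl38 was named after its interval was seen, Mrpl36 for its promoter, and Mrpl30 and Mrpl53 as left out. The comparison with genes in the members' range of signal, and the promoter counts, were added after seeing the data. Alternatives covered pseudocount, filter, normalization, choice of probe set, variance prior, replicate block, threshold and each array left out.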

Additional observations from a re-analysis of the deposited data

How the results depend on the processing

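No mitoribosomal gene was called under the alternatives run, except Mrpl33 without wildtype replicate 2; leaving out 1 array each gave 0 to 1 calls among the members and 19 to 100 over all genes. In place of 23, the count over all genes was 2 with no filter on dim genes, 50 after median centring, 14 with the mean of all probe sets, 0 with no intensity trend (765 at an unadjusted p below 0.05), 45 with every probe set tested and 40 at an adjusted p of 0.10. The replicate block gave 14; replicate numbers are not treated as a pairing, and with the block 0 members were called. The members' median difference stayed above 0 in each alternative: 0.14 after median centring, where the median of all genes moved to 0.07, 65.98% of all genes were higher and 93.4% of members were, and 0.038 to 0.10 with 1 array left out. After quantile normalization it was 0.05 with 72.4% of members higher, and averaging each gene's probe sets gave 0.05 and 68.4%. In limma's fit of the averaged probe sets 4 of 76 members had an unadjusted p below 0.05, as did 709 of all 11921 genes tested. The main fit had 2 of 76 members and 673 of 12819 genes. The smallest adjusted p of a member was 0.103 with averaged probe sets, against 0.913 in the main fit. Of the 34 named members 18 changed sign under at least 1 alternative. By alternative, 7 did so with averaged probe sets, 5 after median centring, 3 after quantile normalization, and 10, 2, 7 and 2 without wildtype replicates 1 and 2 and deficient replicates 1 and 2. Other filters, variance settings, the block and the test of every probe set leave a gene's fitted difference as it is, so they cannot turn a sign. The causes were not tested. The 95% interval of a member's difference reached 0.23 (median) to each side, which limits what 2 arrays per genotype resolve.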

Other observations

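Head-to-head gene pairs were common among the members. The promoter window of 23 of 67 members (34.3%) overlapped that of another gene on the opposite strand, against 18.3% of genes tested and 11.9% of all genes with a window. This was looked at after the members' values were known. The 23 had a median difference of 0.14 with 20 higher, and the 44 others a median of 0.04 with 31 higher, a split that was not tested. Mrpl46 and Mrps11 share such a promoter with each other and differed by 0.15 and 0.10. Mrps12 shares one with Sars2, which encodes the mitochondrial seryl-tRNA synthetase; Mrps12 differed by 0.16 and Sars2 by -0.16 ± 0.18. Mrps27 differed by -0.05 and its neighbour Ptcd2, a mitochondrial RNA-binding protein gene, by -0.31 ± 0.11 (adjusted p = 0.783), from 1415 ± 49 to 1139 ± 52. Mrpl47 and its neighbour Ndufb5, a complex I subunit gene, differed by 0.18 and 0.06. The neighbour differences named here were chosen after their values were seen.

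Of the members, 11 lie on chromosome 11, as Mir146 does, and none lies within 100 tested genes of it in gene order. The nearest were Mrpl22, 109 tested genes away with a difference of 0.03, and Mrps24, 116 away on the other side with 0.06.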
